A study of Homo sapiens with 6 samples.

Results

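The subject is the resting transcriptome of SET-2 cells, read from the 3 untreated libraries of a series of 6. These libraries were chosen by their labels: they are titled as controls 1 to 3, their treatment is given as Placebo, and no measured value entered the choice. SET-2 is an established human cell line grown from a megakaryoblastic leukaemia, and it carries a mutant JAK2, a kinase that relays signals from cytokine receptors. The other 3 libraries, SET-2 cells given CPL, were not used, and what CPL is was not given in the labels. The labels do not say whether the 3 controls came from separate cultures, so the spread given here is that between these samples and may be technical in part. All values come from 1 cell line, and the JAK2 allele cannot be read from a table of gene levels.

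Megakaryocytes, the cells that shed platelets, and red cell precursors arise from a shared progenitor. In that progenitor the transcription factors GATA1, GATA2, TAL1, LMO2 and LDB1 act together at genes of both lineages, while KLF1 favours the red cell programme and FLI1 the platelet programme. Erythropoietin, through its receptor EPOR, signals by way of JAK2 and STAT5, which is why cells with mutant JAK2 can signal without the hormone.

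Polyadenylated RNA was sequenced as single reads on a DNBSEQ instrument, and levels are given in FPKM, reads scaled to gene length and to the depth of the library. Depths recovered from the values were 14647896, 18239506 and 16945787 reads for control replicates 1, 2 and 3. For a gene with 1 kilobase of exons, 3 reads came to 0.205, 0.164 and 0.177 FPKM. A gene is called expressed here when it reached at least 1 FPKM in every control library, and each level is given with its SD over 3 libraries (n = 3 throughout). Of 30735 genes in the table, 11881 were expressed (38.7%), and of 16431 protein-coding genes 10069 were (61.3%), which is the background for every count of list members below. Only 910 of 7176 long noncoding genes (12.7%) and 726 of 5242 pseudogenes passed the same level. No read was seen in any control library for 2919 genes of the table, 749 of them protein-coding. Genes absent from the table enter no count here, so all shares hold only for the genes present. Among the expressed genes the median level was 7.19 FPKM, and 282 genes reached 100 FPKM in every library. In bulk RNA, fewer cells of a type and less RNA per cell cannot be told apart, so every level is an average over the culture.

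The transcriptome was concentrated in few genes. The 10 highest genes of each library held 21.4%, 26.7% and 25.1% of its summed FPKM, and the 1000 highest held 64.4% ± 1.76. Mitochondrially encoded genes supplied most of the top: 14 of the 20 genes with the highest mean were mitochondrial, led by MT-CO2 and MT-CO1, subunits of cytochrome c oxidase. MT-CO2 stood at 11864, 15696 and 15335 FPKM, and MT-CO1 at 10365, 14160 and 13170.5 FPKM. Control replicate 1 was the lowest of the 3 for both. MT-RNR2, MT-CO3, MT-ND4L, MT-ATP6, MT-ND4, MT-ND2, MT-ND1, MT-ND3, MT-RNR1, MT-CYB, MT-ND5 and MT-ND6, further subunits of the respiratory chain and both mitochondrial ribosomal RNAs, made up the other mitochondrial members of these 20. Over all mitochondrial genes the share of summed FPKM was 24.4%, 29.8% and 28.4%. Their share of reads, with no scaling to gene length, was 7.01%, 8.99% and 8.70%. Both shares were again lowest in control replicate 1. The lowest of the 13 mitochondrial messenger RNAs was MT-ATP8, a subunit of the ATP synthase, at 586, 774 and 987 FPKM.

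The highest nuclear gene was FTL, the light chain of the iron store ferritin, at 1987, 2006 and 2256 FPKM (2083 ± 149.7, SD). It was followed by ACTB, beta actin, at 1684 ± 51.9 FPKM, and EEF1A1, the translation elongation factor, at 1591 ± 71.9 FPKM. The libraries of FTL lay above all libraries of ACTB, while the lowest library of ACTB and the highest of EEF1A1 overlapped. In reads the order was the reverse: EEF1A1 had 136860, 166118 and 168406, ACTB 84472, 107347 and 103801, and FTL 25558, 32131 and 33559. Their merged exons are 5948, 3519 and 878 bases, so the order in FPKM depends on these lengths. The chaperone HSP90AB1 (967 ± 21.5 FPKM) and the ribosomal protein RPS12 (929.97 ± 51.1 FPKM) closed the list of 20. The only other member was a pseudogene, RPS28P7, at 941, 1051 and 1085 FPKM. Its 210 bases are 100% identical to those of RPS28, whose own level was 82.6 ± 5.87 FPKM, so reads of the messenger RNA and the pseudogene cannot be told apart here. All 77 cytosolic ribosomal protein genes were expressed, with a median of 168 FPKM, and 6 of them, RPS15A, RPS29, RPL26, RPL17 and RPS10 included, were under 20 FPKM. RPS10 and RPL17 share 39.4% and 35.3% of their exon bases with a readthrough gene, and FPKM divides by the merged length of all exons, so low values of single ribosomal genes are uncertain.

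Red cell genes were the most widely expressed lineage list: 32 of 36 measured members were expressed, 24 of them at 10 FPKM or more in every library, with a median of 23.5 FPKM beside 3.05 FPKM over all protein-coding genes. Alpha globin led the list. HBA2 was measured at 525, 490.1 and 565 FPKM and HBA1, its near-identical neighbour, at 211, 258 and 245 FPKM. HBA2 was above HBA1 in every library, by 1.90 to 2.49 times, although reads of the 2 copies can be exchanged by the counting. From the beta cluster, the fetal gamma globins were high, with HBG1 at 124, 97.7 and 166 FPKM and HBG2 at 83.98, 102 and 110.5 FPKM. For HBG2 57.3% of the exon bases, and for HBG1 13.1%, are shared with an overlapping gene, so the gamma levels are uncertain. The libraries of these gamma genes overlapped, and control replicate 3 was the highest for both. Adult delta globin (HBD, 3.99 ± 0.816 FPKM) was far lower, and adult beta globin (HBB) stood at 1.204, 1.05 and 0.769 FPKM, equal to 23, 25 and 17 reads. HBG1 exceeded HBB 92.9 to 216 times within a library, and gamma globins made up 97.6% to 98.0% of the summed level of the beta cluster. Embryonic zeta globin (HBZ) was present at 31.01, 24.7 and 41.4 FPKM, and theta globin (HBQ1) at 11.3 ± 3.46 FPKM. For HBZ 27.2% of the exon bases are shared with HBM, another globin gene, so its level is uncertain. Embryonic epsilon globin (HBE1) was listed at 0, with 90.01% of its exon bases shared with an overlapping gene. The order HBA2, HBA1, the gamma pair, HBZ, HBQ1, HBD, HBB held without overlap between libraries. Alpha-type genes together were 3.07 to 3.83 times the beta-type genes. This ratio and the gamma share above take the levels of genes with shared exon bases as listed, HBE1 at 0 included, so both are uncertain.

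**Figure D1:**
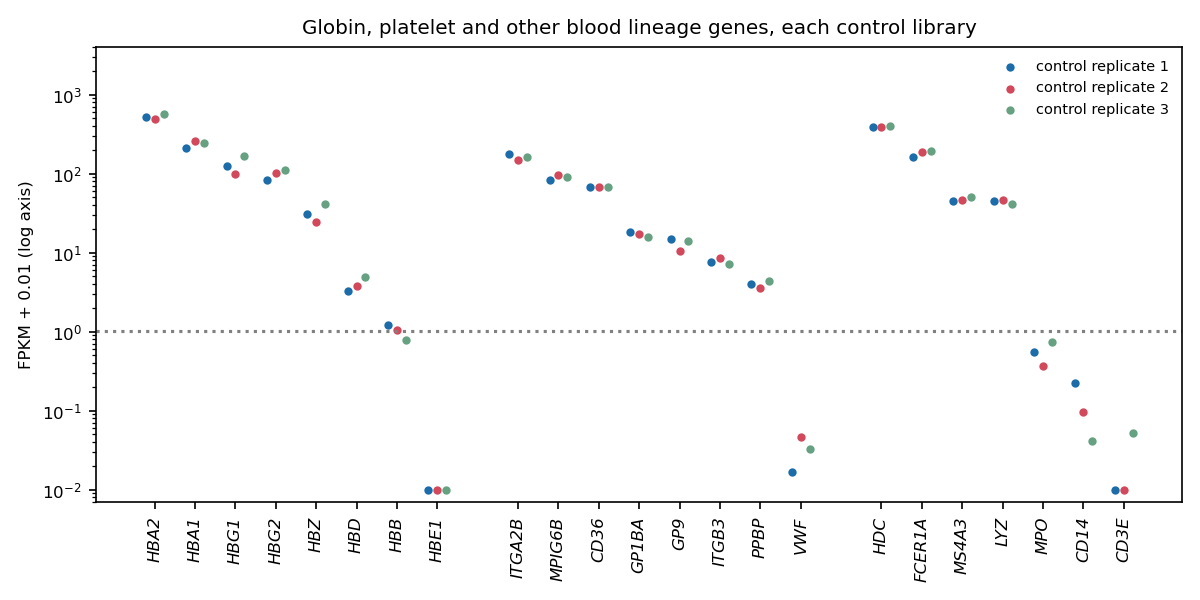
Level of globin, platelet and other blood lineage genes in each of the 3 control libraries, in FPKM plus 0.01 on a log axis; the dotted line marks 1 FPKM. The globins span from HBA2 at 527 FPKM to HBE1 at 0, the platelet genes from ITGA2B at 163 FPKM to VWF at 0.0221 FPKM, and HDC and FCER1A stand far above MPO, CD14 and CD3E.

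Genes for iron, haem and the red cell membrane accompanied the globins. TFRC, the transferrin receptor that brings iron into the cell, was at 279.98, 273 and 255 FPKM. RHAG, the Rh-associated membrane glycoprotein, was at 139, 144 and 140.1 FPKM, and CA1, a red cell carbonic anhydrase, at 119.8, 143 and 147 FPKM. These 2 did overlap, and both lay below TFRC. ALAS2, the red cell enzyme that starts haem synthesis, was at 43.97 ± 4.65 FPKM, and SLC25A37, the mitochondrial iron importer, at 98.5 ± 5.87 FPKM. The glycophorins GYPE (55.2 ± 6.01 FPKM) and GYPB (25.2 ± 0.905 FPKM) are close relatives of each other, so the split between them is uncertain, as it is between RHCE (23.6 ± 1.39 FPKM) and RHD (17.1 ± 1.31 FPKM). Of the membrane skeleton, ANK1, ankyrin, was at 31.98 ± 0.815 FPKM. Others were low: SLC4A1, the anion exchanger of red cells, was at 2.69, 1.74 and 2.197 FPKM, and AHSP, the alpha globin chaperone, at 0.486, 0.683 and 2.52 FPKM, equal to 4, 7 and 24 reads. Control replicate 3 alone put AHSP above 1 FPKM. In a list of iron and haem genes chosen after the values were seen, 17 of 19 were expressed, among them SLC40A1, the iron exporter ferroportin, at 169, 169.9 and 155 FPKM, and HMOX1, which breaks down haem, at 71.2 ± 11.6 FPKM. FTL exceeded FTH1, the ferritin heavy chain, 8.66 to 10.3 times, but 62.4% of the exon bases of FTH1 lie in an overlapping gene.

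The promoters of the red cell genes are shown because GATA factors were among the highest regulators and their recognition letters were looked for. The letters searched were AGATAA on either strand (TTATCT on the strand shown), in 250 bases before to 50 bases after the start of each gene, from RefSeq on GRCh38.p14. They were present in 9 of the 18 red cell promoters that could be matched (50%), in 4 of 20 promoters of platelet surface receptors (20%), in 2 of 61 of ribosomal proteins (3.28%) and in 835 of all 13053 matched promoters (6.40%). The 9 count both GYPE and GYPB, and both RHCE and RHD, as separate promoters. By level, the letters were in 11.2% of promoters of genes with no read and in 3.96% at 100 FPKM and above. The red cell promoters also differ in CpG content, 7 of 18 being CpG-rich beside 70.8% of all. The part of base content in these counts was not tested. The 4 highest non-globin red cell genes with the letters are printed with the match in capitals. The match begins at base -45 from the start for GYPE (chr4:143905510-143905809), at -127 for ALAS2 (chrX:55030928-55031227), at -4 for GYPB (chr4:144019331-144019630) and at 35 for RHCE (chr1:25420886-25421185), all on the minus strand.
GYPE: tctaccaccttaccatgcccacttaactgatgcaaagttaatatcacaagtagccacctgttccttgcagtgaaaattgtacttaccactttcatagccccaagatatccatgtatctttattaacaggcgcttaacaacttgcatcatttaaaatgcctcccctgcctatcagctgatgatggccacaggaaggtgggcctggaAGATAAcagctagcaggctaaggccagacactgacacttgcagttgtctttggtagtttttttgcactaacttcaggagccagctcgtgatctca
ALAS2: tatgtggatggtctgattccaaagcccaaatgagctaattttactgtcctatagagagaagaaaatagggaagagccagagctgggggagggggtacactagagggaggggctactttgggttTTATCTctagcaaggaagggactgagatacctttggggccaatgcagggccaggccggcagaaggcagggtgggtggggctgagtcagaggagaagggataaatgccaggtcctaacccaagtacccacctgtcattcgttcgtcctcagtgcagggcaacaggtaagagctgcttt
GYPB: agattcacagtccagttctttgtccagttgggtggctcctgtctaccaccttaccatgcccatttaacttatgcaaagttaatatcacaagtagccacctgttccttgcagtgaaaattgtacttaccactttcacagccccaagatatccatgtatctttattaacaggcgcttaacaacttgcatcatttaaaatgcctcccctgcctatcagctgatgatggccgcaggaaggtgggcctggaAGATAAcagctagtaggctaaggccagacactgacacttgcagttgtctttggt
RHCE: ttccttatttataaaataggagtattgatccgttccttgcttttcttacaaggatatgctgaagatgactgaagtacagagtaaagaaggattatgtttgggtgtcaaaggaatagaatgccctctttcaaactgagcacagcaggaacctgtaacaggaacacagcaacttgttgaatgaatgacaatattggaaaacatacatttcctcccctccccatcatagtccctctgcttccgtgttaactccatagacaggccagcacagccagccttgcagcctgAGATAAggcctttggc
GYPE and GYPB share long stretches of this sequence, so their matches are not separate examples. Of the 4, all have GC contents between 43.0% and 52.7%, below the median of 64.0% over all promoters. A match says only that the letters are there, and binding was not measured.

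Platelet lineage genes were expressed alongside. Of 27 measured surface receptors of megakaryocytes and platelets 21 were expressed, with a median of 8.60 FPKM, and none was without a read. ITGA2B (chr17:44372180-44389505), the alpha chain of the fibrinogen receptor, was the highest at 175, 149.9 and 164 FPKM, which ranked it 141 among protein-coding genes. Its partner ITGB3, the beta chain, was at 7.504, 8.66 and 7.23 FPKM, so the alpha chain was 17.3 to 23.4 times higher in each library. For ITGB3 51.6% of the exon bases are shared with an overlapping gene, which makes its level uncertain. MPIG6B, an inhibitory receptor of platelets, was at 84.2, 96.6 and 89.95 FPKM, and CD36, a receptor for thrombospondin, at 68.2, 68.6 and 66.9 FPKM. These 3 of the highest surface genes kept the same order, without overlap, in all libraries. Of the receptor complex for von Willebrand factor, GP1BA was at 17.99, 17.2 and 15.6 FPKM, GP9 at 14.8, 10.4 and 14.1 FPKM and GP5 at 6.92, 8.07 and 5.89 FPKM; GP1BB was not analysed here. The collagen receptor GP6 was at 12.4 ± 0.731 FPKM, the ADP receptor P2RY1 at 16.97 ± 1.396 FPKM, and the thrombin receptor F2R at 13.5 ± 1.32 FPKM. The second ADP receptor, P2RY12, was at 0.0735, 0.236 and 0 FPKM, and CLEC1B, the podoplanin receptor, at 0.186, 0.149 and 0.306 FPKM. CD9, often used as a platelet surface marker, stood at 0.9999, 1.09 and 0.765 FPKM and did not meet the criterion in 2 of the 3 libraries.

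Among genes of platelet granules, cytoskeleton and secretion, 26 of 34 were expressed, with a median of 16.1 FPKM. The highest were SRGN, the proteoglycan that packs granules, at 183, 205 and 204 FPKM, FLNA, filamin A, at 141 ± 2.999 FPKM, TIMP3, a protease inhibitor, at 111, 127 and 119 FPKM, and FERMT3, the integrin activator kindlin-3, at 115 ± 4.62 FPKM. Others of the list were lower. PPBP, the precursor of a platelet chemokine, was at 4.01, 3.53 and 4.37 FPKM, and THBS1, thrombospondin, at 4.45 ± 0.505 FPKM. TUBB1, the tubulin of the platelet ring, was at 1.76, 3.09 and 2.03 FPKM, but 34.0% of its exon bases are shared with ATP5F1E, so its level is uncertain. F13A1, coagulation factor XIII, was at 0.224 ± 0.0492 FPKM, and VWF, von Willebrand factor, at 0.00657, 0.0369 and 0.0227 FPKM, equal to 1, 7 and 4 reads. PF4V1 and FGG were listed at 0, and PF4 was not analysed here.

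The list of granulocyte, monocyte and mast cell genes was led by genes known from basophils and mast cells, although other such genes in it were low. HDC, the enzyme that makes histamine, was at 388, 394 and 399.9 FPKM, rank 42 among protein-coding genes, with an SD of 5.69 FPKM. FCER1A, the alpha chain of the high-affinity IgE receptor, was at 162, 187 and 192 FPKM, its gamma chain FCER1G at 33.001, 41.2 and 37.1 FPKM, and its beta chain MS4A2 at 7.05, 6.28 and 5.301 FPKM. All 3 chains of that receptor were thus expressed, in the order alpha, gamma, beta in every library. The mast cell proteases CPA3 (5.74 ± 0.647 FPKM) and TPSB2 (6.75 ± 1.23 FPKM) were also expressed, and MS4A3, found in basophils and granulocyte progenitors, was at 47.2 ± 2.45 FPKM. TPSAB1, a tryptase, was at 1.44 ± 0.229 FPKM, and CLC, a granule protein of basophils and eosinophils, at 0.108, 0.863 and 0 FPKM. The general myeloid genes CD33 (24.2 ± 1.67 FPKM) and ITGAM (14.8 ± 0.463 FPKM) lay above MS4A2, CPA3 and TPSB2. Of the granule enzymes of neutrophils, MPO, myeloperoxidase, was at 0.542, 0.358 and 0.7197 FPKM, from 28, 23 and 43 reads, and ELANE, neutrophil elastase, at 0, 0.16 and 0 FPKM, the latter from 3 reads in 1 library. The monocyte genes CD14 (0.112 ± 0.0954 FPKM) and CSF1R (0.2499 ± 0.111 FPKM) were also low, while LYZ, lysozyme, was at 45.05, 45.999 and 41.1 FPKM, with 34.0% of its exon bases in an overlapping gene. In all, 12 of 28 measured genes of this list were expressed (42.9%), below the 61.3% of protein-coding genes, and the median was 0.585 FPKM.

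Lymphoid genes were mostly silent, with 8 of 29 expressed (27.6%) and a median of 0.116 FPKM. The 8 were BTK, CD4, CD7, CD79A, CD79B, NKG7, GNLY and PRF1. BTK, a kinase of B cells that myeloid cells also use, was at 106, 96.97 and 99.3 FPKM. CD79A, a subunit of the B cell receptor, was at 10.5, 10.8 and 12.8 FPKM, and the cytotoxic granule gene GNLY at 11.1, 10.3 and 8.24 FPKM. CD4 averaged 22.02 ± 1.95 FPKM, CD7 14.8 ± 0.515 FPKM and CD79B, the partner of CD79A, 4.44 ± 0.639 FPKM. CD3E, a chain of the T cell receptor complex, was at 0, 0 and 0.0415 FPKM, from 2 reads in all. LCK, a kinase of T cells, and KLRD1 and GZMB, genes of natural killer and cytotoxic cells, were listed at 0. A count of 0 allows a level of up to 0.01803 FPKM for LCK, taken as 3 reads over the group.

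**Figure D2:**
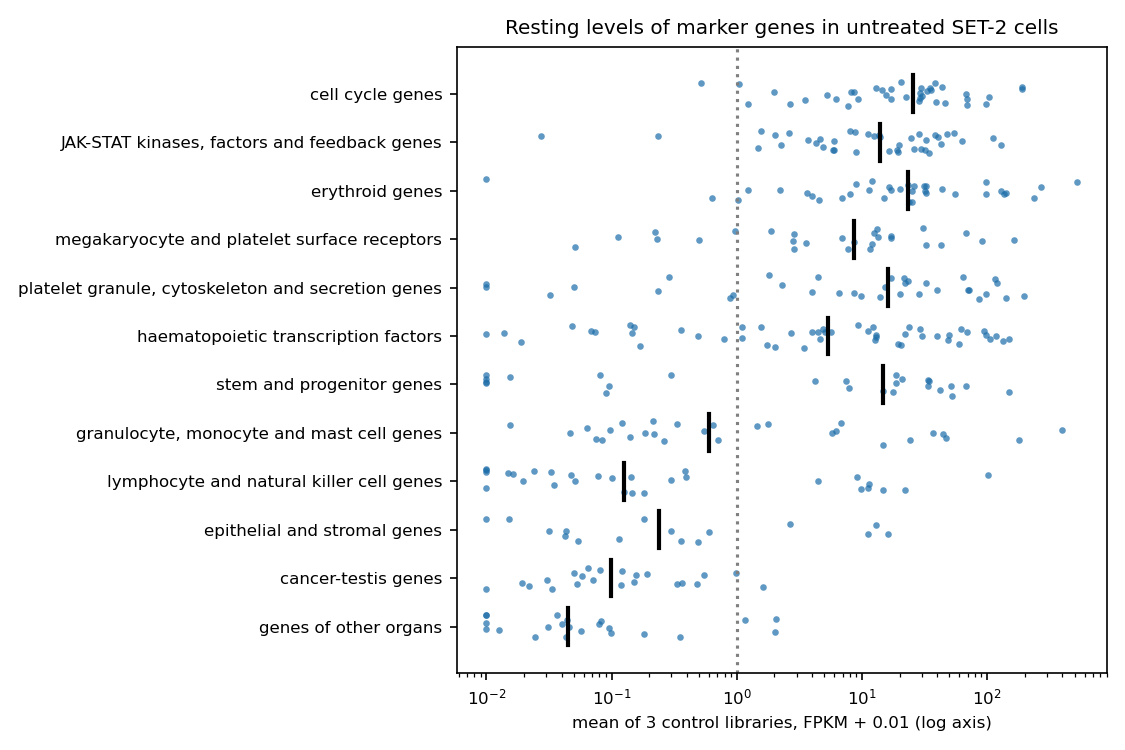
Mean level over the 3 control libraries of every measured member of 12 gene lists, in FPKM plus 0.01 on a log axis, with a black bar at each list's median and a dotted line at 1 FPKM. Medians of the red cell (23.5 FPKM), platelet and stem cell lists lie above 1 FPKM, and those of the granulocyte, lymphocyte, stromal, cancer-testis and other organ lists lie below it.

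Of the progenitor genes 16 of 25 were expressed (64%), close to the 61.3% of protein-coding genes, and 4 were listed at 0. CD34, the marker of haematopoietic progenitors, was at 53.01, 53.7 and 51.1 FPKM and KIT, the stem cell factor receptor, at 71.2, 69.6 and 61.5 FPKM. ITGA4, an integrin that holds cells in the marrow, was at 162, 157 and 131 FPKM, and PTPRC, the leukocyte phosphatase CD45, at 42.4, 46.2 and 37.5 FPKM. CD38, FLT3, SPINK2 and BAALC had no read in any library. On the same rule, 0 reads allow up to 0.00878 FPKM for CD38 and 0.0145 FPKM for FLT3. The other members under 1 FPKM were CRHBP (mean 0.289 FPKM), THY1 (0.0855), MLLT3 (0.0801), HOPX (0.0709) and PROM1 (0.00529). The combination of CD34 and KIT above 50 FPKM with CD38 and FLT3 at 0 was seen in each of the 3 libraries.

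Of 50 measured haematopoietic transcription factors 36 were expressed. KLF1 (chr19:12884422-12887199), the activator of adult globin genes, had the highest mean, at 163, 126 and 159 FPKM, and overlapped GATA1. GATA1 was at 136, 117 and 145 FPKM, and GATA2, its progenitor relative, at 117, 95.6 and 102 FPKM. GATA1 was above GATA2 within each library, by 1.16 to 1.42 times, but the lowest library of GATA1 overlapped the highest of GATA2, so the order of these 2 is not called. NFE2, the regulator of platelet release, was at 121, 112 and 119 FPKM. The adaptors LDB1 (98.8 ± 0.851 FPKM) and LMO2 (94.2 ± 7.79 FPKM) and the basic helix-loop-helix factors LYL1 (61.4 ± 2.52 FPKM) and TAL1 (48.4 ± 0.969 FPKM), which join GATA factors in a complex, were all above 40 FPKM in every library. FLI1, the platelet lineage ETS factor, was at 18.1, 20.4 and 19.5 FPKM, so KLF1 was 6.21 to 9.03 times higher in FPKM. Merged exons are 1611 bases for KLF1 and 8172 for FLI1, with 3856, 3716 and 4337 reads beside 2167, 3035 and 2701. GFI1B was at 30.4 ± 2.49 FPKM, RUNX1 at 22.2 ± 1.73 FPKM and ERG at 13.03 ± 0.369 FPKM. SPI1, the myeloid factor PU.1 that opposes GATA1, was expressed at 29.5, 26.98 and 31.3 FPKM. BCL11A, a repressor of fetal globin genes, was at 0.875, 0.619 and 0.833 FPKM, under 1 FPKM in each library. These values came from 326, 287 and 359 reads over 25422 bases of merged exons. MYB, which also restrains fetal globin, was at 68.99, 71.7 and 65.7 FPKM. MECOM (1.74 ± 0.347 FPKM) and MEIS1 (1.09 ± 0.103 FPKM) were low, GATA3 and PAX5, factors of T and B cells, were at 0.352 ± 0.0298 FPKM and 0.158 ± 0.0607 FPKM, and HLF was listed at 0.

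The signalling chain that mutant JAK2 feeds was expressed nearly whole: 38 of 40 JAK-STAT genes passed 1 FPKM in every library, with a median of 13.9 FPKM. JAK2 (chr9:4984390-5128183) was at 32.02, 30.9 and 26.5 FPKM. JAK1 was higher, at 39.8, 43.2 and 37.5 FPKM, JAK3 at 29.04, 29.1 and 26.9 FPKM overlapped JAK2, and TYK2 at 25.8, 23.5 and 24.1 FPKM lay just below both. Of the signal transducers STAT5A, STAT3 and STAT5B the order was STAT5A (54.9, 52.1 and 54.9 FPKM), STAT3 (44.4, 42.2 and 41.8 FPKM) and STAT5B (19.6, 20.2 and 18.8 FPKM), with no overlap between neighbours. STAT5A exceeded STAT5B 2.58 to 2.92 times, and STAT4, used mainly by lymphocytes, was at 0.225 ± 0.0459 FPKM. Of the genes that STAT5 is known to drive, PIM1, a survival kinase, was the highest member of the list at 136, 123 and 128 FPKM. The feedback inhibitors were much lower and ordered as SOCS3 (17.2, 16.2 and 15.99 FPKM), CISH (5.903, 5.96 and 5.899 FPKM), SOCS2 (4.03, 4.55 and 4.25 FPKM) and SOCS1 (2.09, 2.198 and 2.497 FPKM), without overlap. SH2B3, the adaptor that restrains JAK2, was at 12.4, 12.6 and 12.6 FPKM, while its relative SH2B2 was at 0.0172 ± 0.0152 FPKM. The phosphatase PTPN1 (63.4 ± 2.25 FPKM) was above PTPN11 (47.4 ± 4.42 FPKM) in every library.

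Cytokine receptors varied widely, with 24 of 44 expressed (54.5%) and a median of 1.57 FPKM. CSF2RB, the beta chain shared by the receptors for IL-3, IL-5 and GM-CSF, was the highest at 92.1, 90.9 and 86.9 FPKM. Its alpha partners were measured lower, with IL3RA at 5.59, 4.65 and 6.52 FPKM and CSF2RA at 2.92, 2.56 and 2.45 FPKM. By these values the shared chain exceeded them 13.3 to 19.5 times and 31.5 to 35.5 times. Both alpha genes, and IL9R below, lie in stretches that the X and Y reference sequences share. How reads of such copies were counted was not stated, so these levels and ratios are uncertain. EPOR, the erythropoietin receptor, was at 15.7, 15.5 and 18.02 FPKM, with control replicate 3 the highest. IL27RA, a chain of the interleukin 27 receptor, was at 22.2 ± 1.73 FPKM, the interferon receptor chain IFNAR1 at 28.8 ± 2.602 FPKM, and IL9R, a receptor known from mast and T cells, at 8.98 ± 0.183 FPKM. LEPR, the leptin receptor, was at 8.13 ± 0.623 FPKM, and IL23R at 6.18 ± 0.451 FPKM. CSF3R, the granulocyte growth factor receptor, was near silent at 0.227, 0.195 and 0.224 FPKM.

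Of 49 receptor tyrosine kinases 20 were expressed (40.8%), and the list's median was 0.378 FPKM. KIT was the highest. TIE1, a receptor of vessel and blood progenitor cells, was at 23.8, 21.5 and 22.9 FPKM, and IGF1R at 9.02, 9.05 and 9.17 FPKM. LTK (7.23 ± 1.54 FPKM), MERTK (6.48 ± 0.753 FPKM) and FGFR3 (6.24 ± 0.902 FPKM) were lower on average and overlapped each other. Of 50 chemokine, lipid and other inflammatory G protein-coupled receptors 17 were expressed (34.0%), and only LTB4R, the leukotriene B4 receptor, averaged over 10 FPKM with all libraries above it, at 10.9, 12.2 and 11.2 FPKM. ADORA2B, an adenosine receptor, was at 9.5004, 10.6 and 11.5 FPKM, LPAR5, a lysophosphatidic acid receptor, at 10.7, 10.6 and 9.998 FPKM, and CCR4 at 7.63 ± 0.183 FPKM. CXCR4, which holds progenitors in the marrow, was low at 1.26, 1.41 and 1.96 FPKM. Among pattern recognition genes 16 of 28 were expressed, led by TMEM173 (STING), the adaptor for cytosolic DNA sensing, at 20.1 ± 1.099 FPKM, MYD88 at 12.8 ± 1.04 FPKM and the DNA sensor CGAS at 7.94 ± 0.836 FPKM, while the receptors TLR5 and TLR7 were listed at 0.

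Of 62 cytokine and growth factor ligands 19 were expressed (30.6%), and the median was 0.221 FPKM. TGFB1, stored by platelets, was the highest at 97.6, 90.2 and 106 FPKM, and IL1B, the fever cytokine of myeloid cells, was at 51.2, 48.5 and 52.2 FPKM. TNFSF13B, a survival factor for B cells, was at 41.4, 50.04 and 40.7 FPKM, BMP6 at 22.1 ± 1.77 FPKM, CSF1 at 17.4 ± 1.41 FPKM, and CXCL8 at 5.82 ± 0.326 FPKM. THPO, thrombopoietin, was at 2.06, 2.35 and 2.29 FPKM, with 13.3% of its exon bases shared with a neighbouring gene. A set of 24 receptor and ligand pairs, chosen after the values were seen, could be compared for the 21 whose genes were both measured. Both sides were expressed in 4 pairs, which were IL18R1 with IL18, MET with HGF, TGFBR2 with TGFB1, and BMPR2 with BMP6. In 6 pairs the receptor alone was expressed, as for KIT, whose ligand KITLG was at 0, 0.0177 and 0.01902 FPKM, and for EPOR, whose ligand EPO was at 0, 0.0412 and 0.0444 FPKM. In 9 pairs the ligand alone was expressed, as for CSF1 and for IL1B, whose receptor IL1R1 was at 0.173, 0.248 and 0.208 FPKM. Another was TNFSF13B with TNFRSF17, 1 of its receptors, which was listed at 0. No other receptor of TNFSF13B was in the set, so the pair does not show that the cells lack one.

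**Figure D3:**
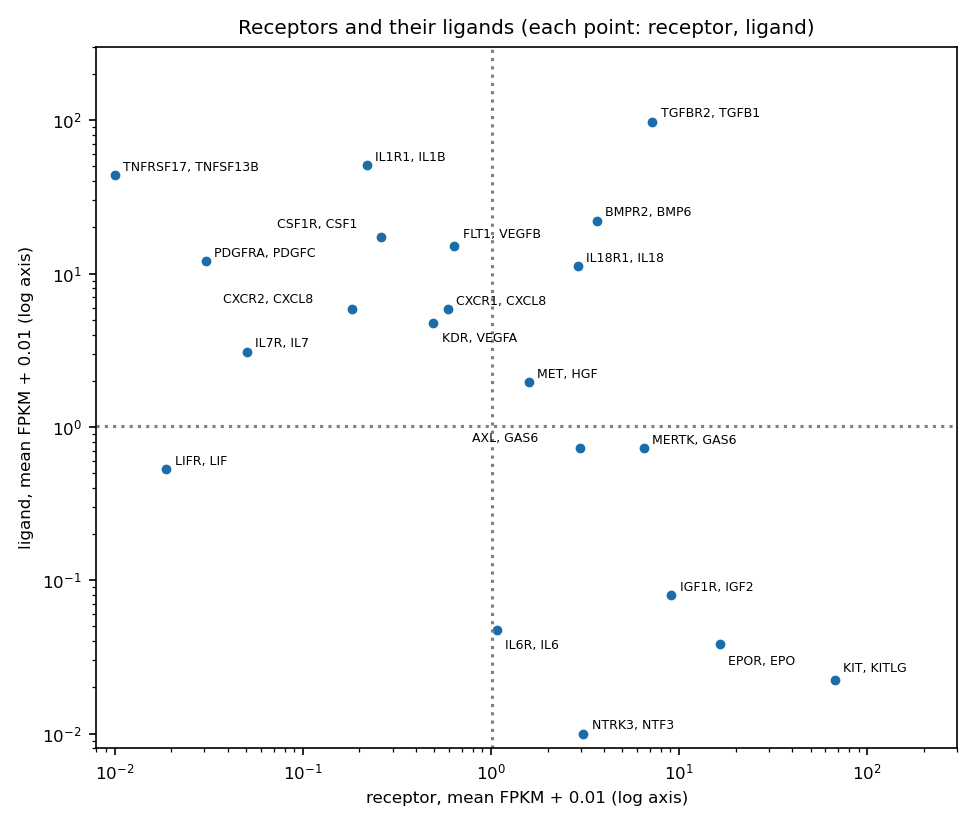
Level of a receptor (horizontal) against that of its ligand (vertical) for 21 pairs, each the mean of 3 control libraries in FPKM plus 0.01 on log axes, with dotted lines at 1 FPKM. The 4 pairs in the upper right have both sides expressed, KIT, EPOR and IGF1R lie at the lower right, and IL1R1, CSF1R and TNFRSF17 at the upper left; IL6R averaged 1.07 FPKM but was not over 1 FPKM in every library.

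Genes of cell division were expressed in 36 of 38 cases, with PCNA, the replication clamp, at 183, 192 and 195 FPKM and MCM3, a part of the replicative helicase, at 193, 181 and 195 FPKM. TOP2A was at 98.3 ± 9.97 FPKM, CDK1 at 45.7 ± 2.39 FPKM and MKI67 at 15.7 ± 0.827 FPKM. Among the D cyclins CCND3 (44.1, 41.8 and 45.2 FPKM) stood 11.5 to 14.1 times above CCND2 (3.14, 3.65 and 3.74 FPKM), and CCND1 was at 1.07, 1.18 and 1.38 FPKM. Their kinases CDK6 (30.1 ± 3.34 FPKM) and CDK4 (28.9 ± 1.95 FPKM) overlapped, and 43.2% of the exon bases of CDK4 are shared with an overlapping gene. CDKN1A, the p21 inhibitor, was at 1.75, 2.18 and 2.03 FPKM, and CDKN2C, the p18 inhibitor, at 16.5, 14.8 and 19.4 FPKM. TERT, the catalytic subunit of telomerase, was at 4.08, 3.24 and 3.72 FPKM. Replication-dependent histone genes were low, 10 of 18 expressed, in RNA selected by poly(A) tail, which most of their messages lack. HIST1H2BK was the highest of them at 40.1 ± 3.098 FPKM.

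Among regulators of cell death 10 of 16 BCL-2 family genes were expressed. MCL1, which protects cells and turns over quickly, was the highest at 67.5, 66.8 and 63.3 FPKM. BCL2L1, which encodes BCL-XL, the survival protein that platelets and maturing red cells rely on, was at 21.3, 21.3 and 25.2 FPKM, and 43.0% of its exon bases are shared with an antisense gene. BCL2 itself was at 0.714, 0.634 and 0.677 FPKM, so BCL2L1 exceeded it 29.8 to 37.2 times. The effector BAX was at 24.1, 19.2 and 23.04 FPKM and overlapped BCL2L1.

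In glycolysis and glucose uptake 22 of 28 genes were expressed, with GAPDH at 593, 685 and 740.2 FPKM and ENO1, enolase, at 313 ± 19.6 FPKM. LDHB, the lactate dehydrogenase chain of aerobic tissues, was 2.21 to 2.65 times LDHA, at 367, 343 and 379 FPKM beside 138, 156 and 156 FPKM. For LDHB 33.4% of the exon bases are shared with an overlapping gene, so this ratio is uncertain. PKLR, the pyruvate kinase of liver and red cells, was at 44.1, 42.5 and 43.7 FPKM, and the general form PKM was 2.33 to 2.53 times higher. The hexokinase HK1 (75.8 ± 8.41 FPKM) was above HK2 (17.2 ± 1.24 FPKM), and the glucose transporter SLC2A1 (51.9 ± 2.01 FPKM) above SLC2A3 (25.6 ± 0.976 FPKM), in every library. ALDOA was at only 2.09 ± 0.452 FPKM, with 53.5% of its exon bases shared with an overlapping gene, so its level is uncertain.

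Early response genes were uneven, with 15 of 26 expressed. MYC was at 133, 150.2 and 163 FPKM, EGR1 at 78.7, 70.95 and 73.4 FPKM, JUNB at 58.7, 44.3 and 54.8 FPKM and JUND at 34.3 ± 1.83 FPKM. FOSL1, a Fos relative, was at 13.4 ± 0.967 FPKM, above FOS itself at 3.4999, 3.35 and 2.84 FPKM, and JUN was at 0.752, 1.13 and 0.7501 FPKM. JUNB, JUND and FOSL1 were above FOS and JUN in each of the 3 libraries.

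Of 23 HLA and antigen presentation genes, a list chosen after the values were seen, 15 were expressed. The class I genes were high, with B2M, their shared light chain, at 344, 361 and 373 FPKM, HLA-B at 266 ± 15.4 FPKM and HLA-C at 141 ± 9.96 FPKM. Class II was low, with HLA-DRA at 8.16, 10.97 and 10.1 FPKM, and HLA-B exceeded it 22.7 to 34.2 times. CIITA, the regulator of class II genes, was at 0.599, 0.534 and 0.5004 FPKM, while CD74, the class II invariant chain, was at 30.2 ± 1.59 FPKM. HLA genes vary between people and resemble each other, so reads can be lost or moved between them.

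HOX genes, which mark position along the body axis and stages of blood progenitors, were expressed mostly from the HOXB and HOXA clusters. Of 33 measured genes 14 were expressed, 7 of 9 in the HOXB cluster on chromosome 17, 6 of 11 in HOXA on chromosome 7, 1 of 7 in HOXD and none of 6 in HOXC. The summed level of HOXB was 61.5, 60.5 and 63.8 FPKM, above HOXA at 20.2, 24.2 and 22.3 FPKM, HOXD at 3.47, 4.99 and 3.97 FPKM and HOXC at 1.89, 1.86 and 2.31 FPKM. HOXB9 (chr17:48621159-48626356) alone supplied 31.3, 31.03 and 34.3 FPKM and was 3.33 to 3.46 times the next gene, HOXB2, at 9.06, 9.18 and 10.3 FPKM. HOXB4, known for the expansion of blood stem cells, was at 9.03, 7.08 and 7.08 FPKM. In the HOXA cluster HOXA10 (6.06, 5.59 and 4.92 FPKM) was above HOXA9 (3.31, 3.86 and 3.702 FPKM), and 26.3% and 27.0% of their exon bases are shared with an antisense gene. HOXD13, at 2.499, 3.74 and 3.45 FPKM, was the only expressed gene of its cluster, and HOXC10 and HOXC12 were listed at 0.

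**Figure D4:**
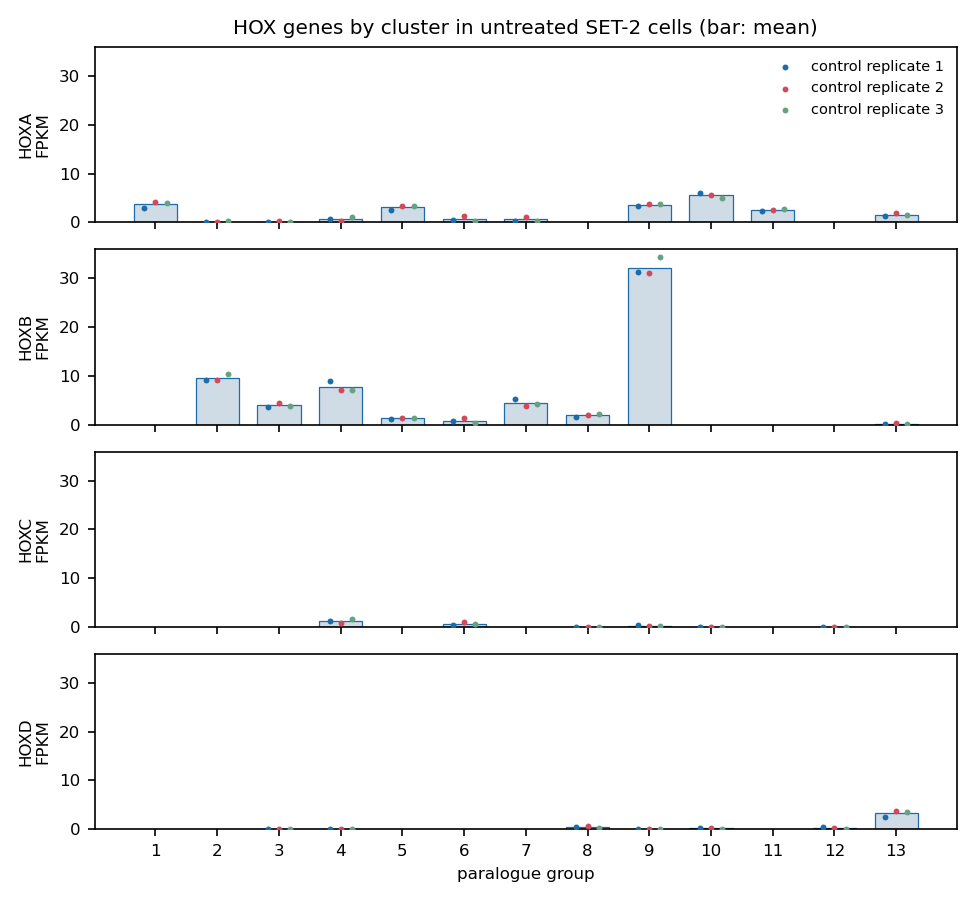
Levels of measured HOX genes in FPKM, by cluster (panels) and paralogue group (horizontal axis); bars are means and points the 3 control libraries. HOXB9 reaches 32.2 FPKM while no other HOX gene exceeds 10 FPKM on average, and the HOXC panel is near 0; empty positions were not analysed here or do not exist.

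Genes of other tissues were largely silent among those in the table, which held 22 of 45 organ-specific and 22 of 30 cancer-testis genes named. Of 22 organ-specific genes 3 were expressed (13.6%), all low: TNNI3, cardiac troponin I, at 2.42, 1.11 and 2.61 FPKM, OPN1SW, an opsin, at 1.99 ± 0.108 FPKM, and MBP, myelin basic protein, at 1.16 ± 0.0164 FPKM. LGR5, NPHS1, SFTPC and UMOD were listed at 0, and ALB, albumin, was at 0, 0.179 and 0.0874 FPKM. Of 22 cancer-testis genes only ACRBP was expressed, at 1.62 ± 0.393 FPKM, with SYCP1 listed at 0. Without control replicate 2 the count was 2, since ACTL8 stood at 1.209, 0.677 and 1.045 FPKM, and at 0.1 FPKM it was 7. Epithelial and stromal genes were expressed in 4 of 16 cases, VIM at 16.3 ± 2.52 FPKM, KRT18 at 11.3 ± 1.18 FPKM, ERG at 13.03 ± 0.369 FPKM and the endothelial cadherin CDH5 at 2.63 ± 0.269 FPKM, while LUM was listed at 0. Among gene families, 3 of 74 olfactory receptors were expressed, led by OR2W3 at 7.81 FPKM, 1 of 47 clustered protocadherins, 4 of 39 collagens, led by COL18A1 at 18.6 FPKM, and none of 6 keratin-associated proteins. The ZNF zinc finger genes stood apart from these families, with 367 of 492 expressed and a median of 3.06 FPKM, close to the 3.05 FPKM of all protein-coding genes. Imprinted genes, of which normal tissue uses the copy from 1 parent, were expressed in 9 of 18 cases, with GNAS at 63.5 ± 5.43 FPKM, MEST at 20.2 ± 0.841 FPKM and GRB10 at 19.02 ± 0.2202 FPKM. MEG3, a maternally expressed RNA, was at 2.76, 2.22 and 2.39 FPKM, while H19 was at 0.353, 1.38 and 1.87 FPKM and IGF2 at 0.0697 ± 0.05397 FPKM.

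Long noncoding RNAs were low as a class, with a median of 2.80 FPKM among the 910 expressed, yet 2 reached 100 FPKM in every library. The highest was AL713998.1 (chr6:67887646-67889339), a transcript without a described function here, at 455, 496 and 400.2 FPKM, and no similar transcript was found for it among the annotated ones. AC079466.1 (chr19:28606688-28615229), at 326, 316 and 299.5 FPKM, resembles the endogenous retroviral transcript ERVE-1, with 84.8% identity over 1181 bases. NORAD, which binds Pumilio proteins, was at 95.01 ± 7.04 FPKM. GAS5 (76.9 ± 2.02 FPKM), SNHG1 (52.2 ± 2.05 FPKM) and LRRC75A-AS1 (69.997 ± 5.88 FPKM), which hold small nucleolar RNAs, LINC01694 (57.5 ± 5.13 FPKM) and AC099850.3 (46.04 ± 5.899 FPKM) were the others among the 10 highest. MALAT1, a nuclear speckle RNA, was at 68.04, 49.9 and 39.4 FPKM, the widest spread of these 10, with its lowest value in control replicate 3.

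AL034397.3 (chrX:66015461-66020422) holds in its exon the hairpin of MIR223, a microRNA known from myeloid cells and platelets. It was at 87.6, 94.8 and 99.1 FPKM, a range of levels that overlapped that of NORAD. Of 121 measured long noncoding hosts of microRNAs 29 were expressed (23.97%), beside 12.7% of all long noncoding genes. AC004687.1, which holds MIR142, a microRNA of blood cells, was at 26.7, 13.7 and 18.9 FPKM. MIR17HG, the host of the MIR17 to MIR92A1 cluster on chromosome 13, was at 8.56, 8.98 and 7.60 FPKM, with 6 microRNAs in its exons. Of the 16 mature sequences encoded in these hosts, a part is printed, from RefSeq on GRCh38.p14, to show which of those share a seed. The seed, bases 2 to 8, is in capitals. Mature microRNAs themselves were not measured, since these libraries hold polyadenylated RNA.
hsa-miR-223-3p: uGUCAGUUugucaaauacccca
hsa-miR-142-3p: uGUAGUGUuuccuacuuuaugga
hsa-miR-142-5p: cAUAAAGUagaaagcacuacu
hsa-miR-17-5p: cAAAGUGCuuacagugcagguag
hsa-miR-20a-5p: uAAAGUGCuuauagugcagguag
hsa-miR-18a-5p: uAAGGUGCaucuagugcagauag
hsa-miR-19a-3p: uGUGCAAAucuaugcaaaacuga
hsa-miR-19b-3p: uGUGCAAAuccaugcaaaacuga
hsa-miR-92a-3p: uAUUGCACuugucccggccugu
In the MIR17HG cluster, miR-17-5p and miR-20a-5p share the seed, as do miR-19a-3p and miR-19b-3p, while miR-18a-5p and miR-92a-3p each have their own. Of the arms not printed, miR-19a-5p and miR-19b-1-5p also share a seed. The seeds of miR-223-3p and of both miR-142 arms match none of the others printed.

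Promoter composition went along with the resting level. Promoters were called CpG-rich when at least 50% of the bases were G or C and CpG occurred at 0.6 or more of the number given by base content. Of 13053 protein-coding genes with a matched promoter 70.8% were CpG-rich, 39.96% of those with no read, 56.9% of those at 0.1 to under 1 FPKM, 78.9% at 1 to under 10 FPKM, 86.1% at 10 to under 100 FPKM and 81.5% at 100 FPKM and above. Split at a mean of 1 FPKM, the shares were 81.9% above and 49.8% below. Across genes, which are not independent replicates, the rank correlation of the CpG ratio with the level was 0.357, given as a description. The letters CCGGAA on either strand, as ETS factors read them, were in 10.04% of the promoters of genes with no read and in 35.7% of those at 10 to under 100 FPKM. These letters contain a CpG, and the part of CpG content in this count was not tested. Among ribosomal proteins 33 of 61 promoters (54.1%) held CCGGAA, beside 25.8% of all. The letters TATAAA were in 13.1% of promoters of genes with no read, in 5.18% at 1 to under 10 FPKM and in 13.2% at 100 FPKM and above. Among matched promoters 7 of 18 of the red cell list and 4 of 20 of the platelet receptor list were CpG-rich, members under 1 FPKM included.

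**Figure D5:**
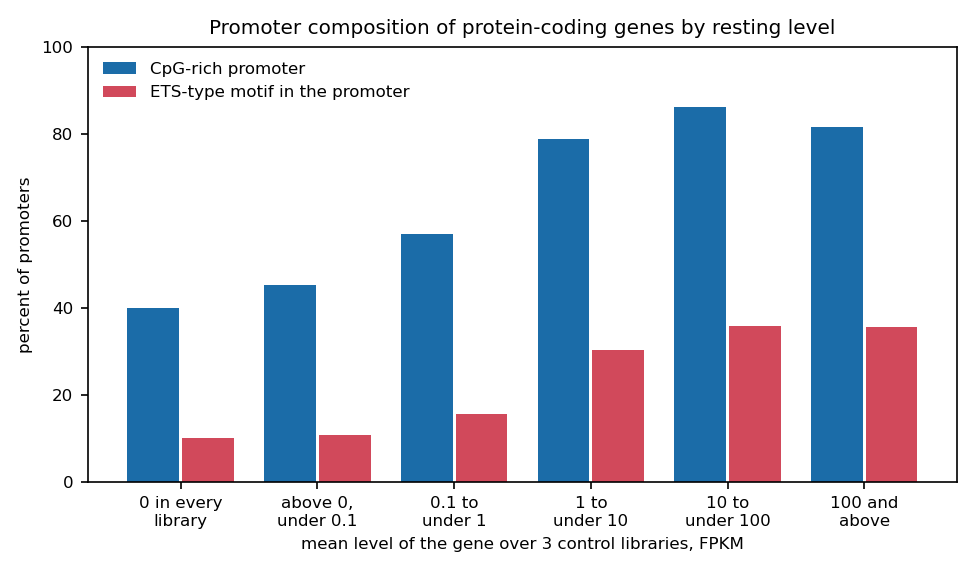
Percent of promoters that are CpG-rich (blue) and percent that hold the ETS-type letters (red), for protein-coding genes grouped by mean level over the 3 control libraries. CpG-rich promoters rise from 39.96% among genes with no read to 86.1% at 10 to under 100 FPKM and stand at 81.5% above that.

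The 3 libraries were close to each other. Over 7358 genes with a mean of at least 5 FPKM the median coefficient of variation was 7.25%. Counting error alone gave 3.03%, computed from the mean number of reads and not from 3 values, so the 2 are not fully alike. The highest library was within 1.5 times the lowest for 96.5% of the genes. Each pair of libraries differed by more than counting error, with a chi-square of 8.71 to 10.95 per degree of freedom. That value is a mean over genes, which genes with very many reads can raise. It does not show whether the libraries came from separate cultures, and each was counted as 1 sample. Only 63 genes spanned more than 2 times, of which 9 were protein-coding. The 10 widest were small RNAs, pseudogenes and 1 protein-coding gene. RN7SL2, a copy of the signal recognition particle RNA, was at 74.4, 41.1 and 11.6 FPKM, SNORA65, a small nucleolar RNA, at 3.15, 11.8 and 15.9 FPKM and MTX1P1, a pseudogene, at 1.63, 1.37 and 20.5 FPKM. AC135983.5, AC037487.3, RNU6-1318P, RNU6-1048P, RNU6-882P and RF00019 were the others. The protein-coding one, EIF3CL, was at 13.03, 1.51 and 2.501 FPKM, and its near-identical copy EIF3C, a subunit of a translation initiation factor, was at 17.3, 4.55 and 14.7 FPKM. Reads of these 2 copies cannot be told apart, and control replicate 2 was the lowest for both. Among lineage genes the spread was small for HDC, CD36 and RHAG and large for AHSP (1.23 ± 1.12 FPKM) and HBM (0.627 ± 0.353 FPKM), which had at most 24 and 16 reads in a library. For HBM 44.8% of the exon bases are shared with HBZ.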

How the data were processed

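The 3 control libraries of SET-2 cells were described, with no test, since only 1 group was in use. The values, for 30735 genes, are FPKM as deposited by the authors. No header names the unit. It was read from low values: scaled by the merged exon length of GENCODE 29, 98.7% to 98.9% of those under about 20 reads fell within 0.1 of a whole read in each library, which also gave the depth. Per the submitters' processing notes, HISAT2 2.0.4, Bowtie2 2.2.5, RSEM 1.2.12, DESeq2 1.4.5 and GRCh38 were used, with no role given for each. How reads of overlapping genes and near-identical copies were counted was not stated, and nor was the keeping of strand. Because FPKM is relative to the total of a library, a rise of the most abundant genes lowers the rest.

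Columns were matched to samples by the description labels, and 0 value columns belonged to other samples. Positions are those of the table; 30683 of its gene IDs were found in GENCODE 29 and 30212 had the same position there. Promoters and microRNAs came from RefSeq on GRCh38.p14. Transcripts of the highest noncoding genes were compared with blastn 2.17.0. Python 3.11.15 was used with pandas 2.3.3, numpy 2.4.6 and, for the figures, matplotlib 3.10.9. The functions were tested on simulated data. An order between 2 genes was called only where their libraries did not overlap. Such orders and ratios are in FPKM over merged exons, and reads alone can give another order.

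The 25 gene lists and the rule for named genes (the 20 highest genes, the 10 highest long noncoding genes, the 10 widest between libraries, up to 8 highest members and the members without reads of each list, and genes of interest) were set with earlier results of these data known. The HLA, iron and haem lists, the receptor and ligand pairs, the ratios and further genes named beside their list were chosen after the values were seen. Genes whose level could tell the donor's sex were left out. Alternatives covered the level that counts as expressed, the scaling of the libraries and leaving out each library. Results of some named genes are not reported here.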

Additional observations from a re-analysis of the deposited data

How the results depend on the processing

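No paired analysis was possible because only the control group was used and no test was made. The number of expressed genes (11881) became 17317 with 0.1 FPKM as the level, 13644 with 0.5 FPKM, 6932 with 5 FPKM, 14396 with any 1 library and 11870 after scaling to an equal sum, and 12124 to 12351 without each control replicate in turn. The median level of the expressed genes was 7.12 to 7.31 FPKM without each control replicate in turn and 7.16 to 7.20 FPKM under the 3 other scalings. The share of the 10 highest genes was 23.2% to 25.9% when a replicate was left out. Expressed members of the lists (493) were 495 to 498 without each replicate. The median coefficient of variation was 5.71% to 6.17% without each replicate, 9.36% with a minimum mean of 1 FPKM and 29.2% with no filter. The excess of CpG-rich promoters among genes at or above the split was 32.1 points at 1 FPKM, 33.1 at 0.1 FPKM and 25.01 at 5 FPKM. Counts without a replicate could only rise or stay equal, since fewer libraries had to pass. A coefficient of variation over 2 libraries is not like that over 3, so its fall is not read as a closer match. The cause of the other shifts was not tested. Of 105 levels of single genes under another scaling, none moved by more than its SD over the libraries; a mean over 2 of 3 libraries lies within that SD by construction. Of the 50 list counts at another level, 18 moved by over 1.5 times. The scaling without mitochondrial genes was added after seeing the data. Depth limits the lowest genes: under about 3 reads a level cannot be told from 0.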
